A study of Mus musculus with 18 samples.

Results

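The genes described are those of the molecular motors that walk along the cytoskeleton. They were taken from the count table by symbol alone: names that begin with Kif or Klc and a digit (kinesin heavy and light chains), with Dync, Dynll, Dynlt, Dynlrb or Dctn (cytoplasmic dynein and its partner complex dynactin), or with Myo and a digit (unconventional myosins). This rule found 74 of the 13973 genes in the table, made up of 29 kinesin heavy chain genes, 4 kinesin light chain genes, 15 dynein genes, 6 dynactin genes and 20 myosins. All 74 passed the low-count filter, as did all 13973 genes in the table, so passing it does not set motor genes apart. Motor genes absent from the table could not be examined. Of the 74, 57 had a mean of at least 5 CPM (read counts scaled for library size, TMM-adjusted) and 17 were below that.

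Kinesins and cytoplasmic dynein move cargo along microtubules, most kinesins towards the growing plus end and dynein towards the minus end, so that in an axon kinesins carry vesicles and mitochondria outwards and dynein carries endosomes and worn organelles back to the cell body. Dynein is built on a very large heavy chain that holds the motor, to which intermediate, light intermediate and light chains are attached, and it needs dynactin to travel far. Unconventional myosins move on actin, which fills dendritic spines and lies under the plasma membrane.

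Polysome RNA-seq was made from hippocampal-cortical slices of male C57BL/6N mice aged 28 to 35 days, wild type (WT) or Fmr1 knockout (KO), the latter backcrossed to C57BL/6. Slices were incubated for 30 min with DMSO as vehicle or with homoharringtonine (HHT) at 20 µM, a drug that halts ribosomes just after initiation and lets elongating ones run off. Each lysate came from 10 slices pooled from 2 to 3 mice and gave an input library, a medium polysome library and a heavy polysome library. There were 2 lysates per genotype under HHT and 1 per genotype in vehicle, so the 18 libraries form 12 groups, and single vehicle libraries are taken to scatter as the HHT ones do.

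Libraries held between 6226237 and 13834652 estimated counts, of which the motor genes took 0.933 to 1.54%. Fmr1 stood at 13.9 to 32.2 CPM in the 9 WT libraries and at 4.62 to 8.53 in the 9 KO libraries, which do not overlap. All 12 neuron markers were measured, and their summed level ran from 13710 to 14481 CPM in vehicle input and from 14219 to 16258 in HHT input. In heavy polysomes the same sum was 22093 to 22823 CPM in vehicle and 15741 to 16987 under HHT, with 9 of the 12 lower and 2 higher, and in medium it was 12171 to 13426 and 15999 to 16522. Over all 13973 genes 3781 were higher and 3451 lower under HHT in heavy, and 1702 were higher and 30 lower in input. Few genes of any kind were thus lower in HHT input. Lists of 10 astrocyte, 10 oligodendrocyte, 10 microglia and 10 vessel markers had 4, 4, 6 and 5 members higher and 0 lower in HHT input, and their summed levels there did not overlap with vehicle. These were 2324 to 2777 against 1669 to 1917 CPM for astrocytes, 4208 to 4944 against 3524 to 3777 for oligodendrocytes, 193 to 235 against 93.1 to 131 for microglia and 60.9 to 74.7 against 30.68 to 31.05 for vessels. The part of these shifts in the values of the motor genes was not tested. In whole slices a change in the number of cells of a type and a change in RNA per cell cannot be told apart. Each library was made from the same mass of RNA, so values are shares within a fraction.

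In vehicle input the ranking per transcript length, in the authors' rescaled TPM, was led by Klc1, a light chain that links kinesin-1 to cargo, at 1291 to 1325 in the KO and WT libraries. Dynlrb1, a roadblock dynein light chain, followed at 692 to 715, then Kif5a, a neuronal kinesin-1 heavy chain, at 651.1 to 651.5, and Dynll2, a light chain, at 525 to 607. Dctn1 stood at 548.5 to 549.1, which lies within the range of Dynll2, so these neighbours in the order are not separated. Dync1h1, the only heavy chain of cytoplasmic dynein-1, ranked 17th with 152.5 to 152.9, below its intermediate chain Dync1i1 at 234 to 240. The lowest of the 74 was Kif24 at 1.2 to 1.42.

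The first comparison asks which motor mRNAs changed in the lysate as a whole after HHT. Only Kif5c, a kinesin-1 heavy chain, passed the threshold of an edgeR adjusted p of 0.05, out of 74 motor genes, while 12.4% of all 13973 genes passed (12.2% higher and 0.215% lower). Kif5c held 577 and 504 CPM in WT and KO vehicle, 449 and 409 in the WT HHT libraries, and 441 and 396 in the KO HHT libraries. Every HHT library was below both vehicle libraries, and the change was -0.35 ± 0.10 on the log2 scale (SE, adjusted p = 0.0439). The call was lost when any one of the 4 HHT lysates was left out, with adjusted p up to 0.181. Without an adjustment 7 motor genes had p under 0.05, as had 3011 of all 13973 genes.

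Polysomes moved far more than input. In medium polysomes 24 of the 74 motor mRNAs were higher under HHT than in vehicle and 10 were lower, 45.9% in all, against 47% of all genes (25.4% higher, 21.5% lower). In heavy polysomes 6 were higher and 26 lower, 43.2% in all, against 51.8% of all genes (27.1% higher, 24.7% lower). The share called was thus near that of all genes in medium and below it in heavy, and both directions were unequal in opposite ways in the 2 fractions. The median change was 0.12 in medium and -0.25 in heavy on the log2 scale, beside 0.03 and 0.06 over all genes. In all, 10 motor mRNAs were higher in medium and lower in heavy, 3 were higher in both (Dync1h1, Dynll2 and Myo7a), 5 were lower in both, and none was lower in medium and higher in heavy. A further 11 were higher in medium only, 5 lower in medium only, 3 higher in heavy only, 11 lower in heavy only, and 26 passed in neither. In medium, HHT libraries lay wholly above vehicle for 31 motor genes and wholly below for 18, against 33.9% and 31.5% of all genes; in heavy this held for 13 and 37, against 35.2% and 32.9%. How these numbers move with the scaling is given with the other settings. The counts of single classes and lists given below are to be read beside these shares of all genes. Whether a class differs from all genes of its coding length was not tested.

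**Figure D1:**
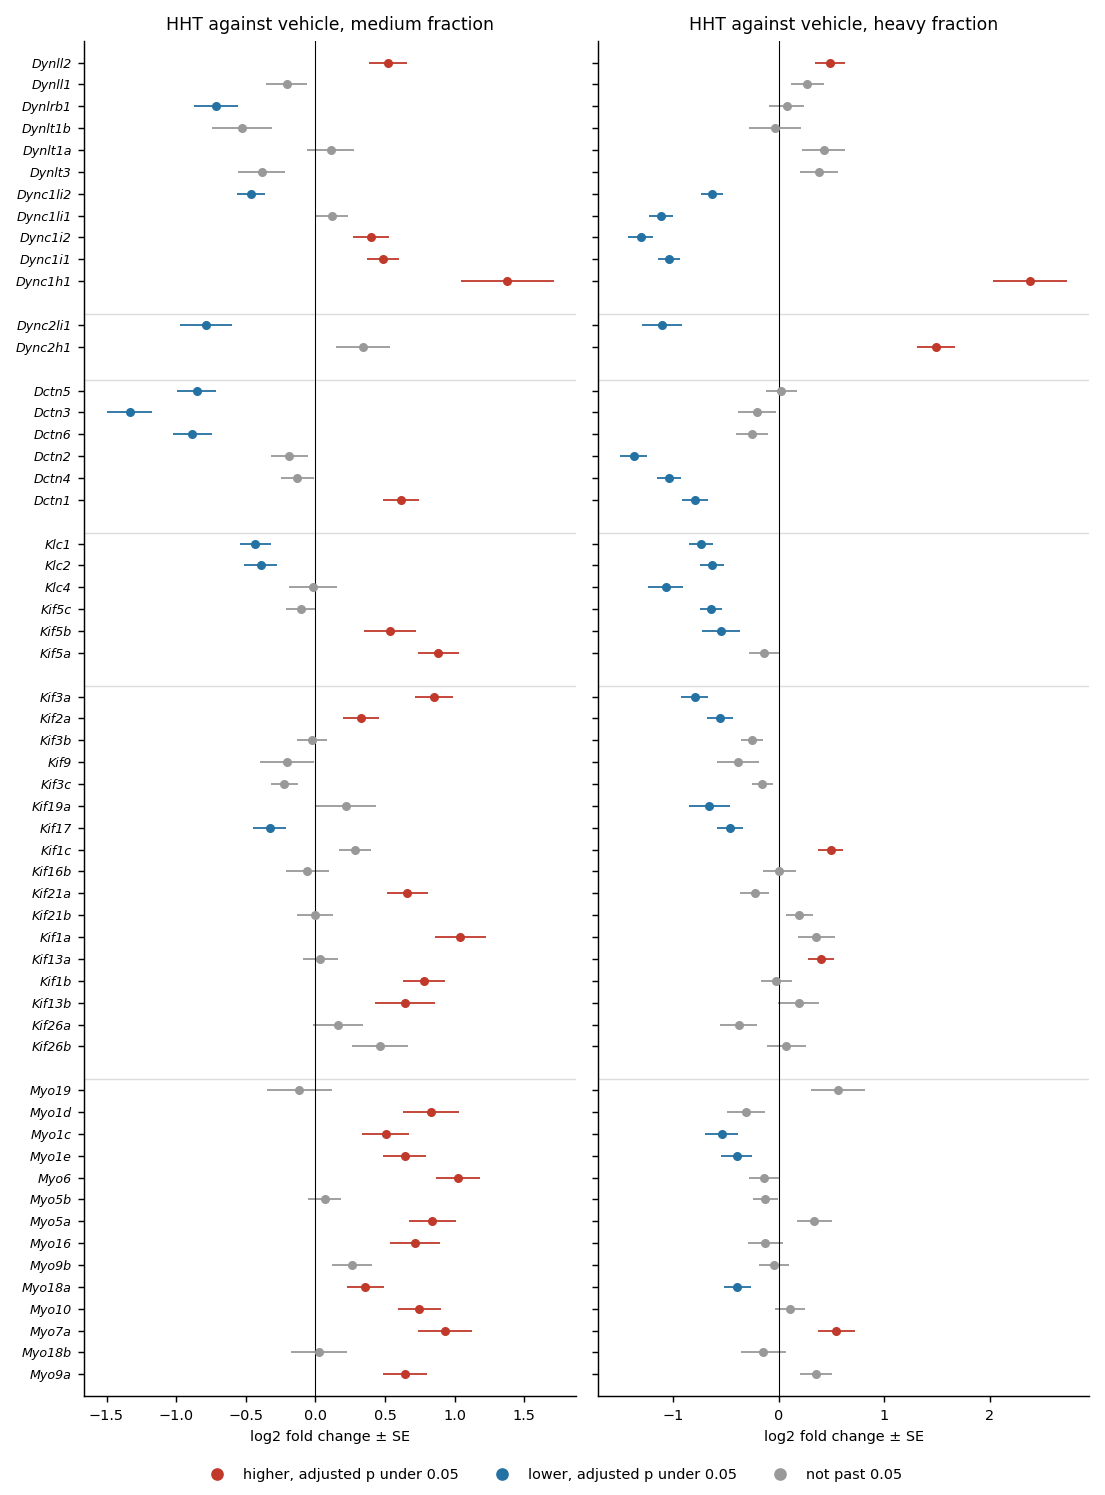
Change under HHT (log2 fold change ± SE, edgeR, averaged over genotypes, 4 HHT against 2 vehicle libraries per fraction) of motor mRNAs with a mean of at least 5 CPM (1 is not shown), in medium (left) and heavy polysomes (right), grouped as dynein-1 with light chains, dynein-2, dynactin, kinesin-1, other kinesins and myosins, and ordered by coding length within a group. Dync1h1 and Dync2h1 stand far to the right in heavy, at 2.38 and 1.49, while the intermediate and light intermediate chains of dynein, Dctn1, Dctn2, Dctn4 and most kinesin-1 mRNAs lie to the left and the dynein light chains near or above 0.

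The heavy chain of dynein-1 had the largest rise of any motor mRNA in both polysome fractions. Dync1h1 (chr12:110601452-110666945, plus strand of mm10) has a coding sequence of 13932 nt, the longest of the 74. In heavy polysomes it stood at 651 CPM in WT vehicle and 734 in KO vehicle, and at 3800 and 3601 in the WT HHT libraries and 3271 and 3724 in the KO HHT libraries. None of the 4 HHT libraries came near vehicle, and they were 5.20-fold higher on average (2.38 ± 0.35, adjusted p = 7.95e-05). In medium polysomes it stood at 150 and 143 CPM in WT and KO vehicle, 584 and 296 in WT HHT and 450 and 206 in KO HHT. Here too no HHT library reached down to vehicle, and the change was 1.38 ± 0.33 (adjusted p = 0.00425), but in both genotypes the replicate 1 library was further above replicate 2 than replicate 2 was above vehicle. With the replicate 2 lysates alone, a setting chosen after seeing the data, the medium change was 0.78 and with the replicate 1 lysates alone 1.82. These settings leave 1 HHT lysate per genotype and cannot measure the spread between lysates, so no p is given for them. Input did not separate, with 708 and 723 CPM in vehicle and 991, 557, 964 and 701 under HHT (0.17 ± 0.31, adjusted p = 0.859).

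**Figure D2:**
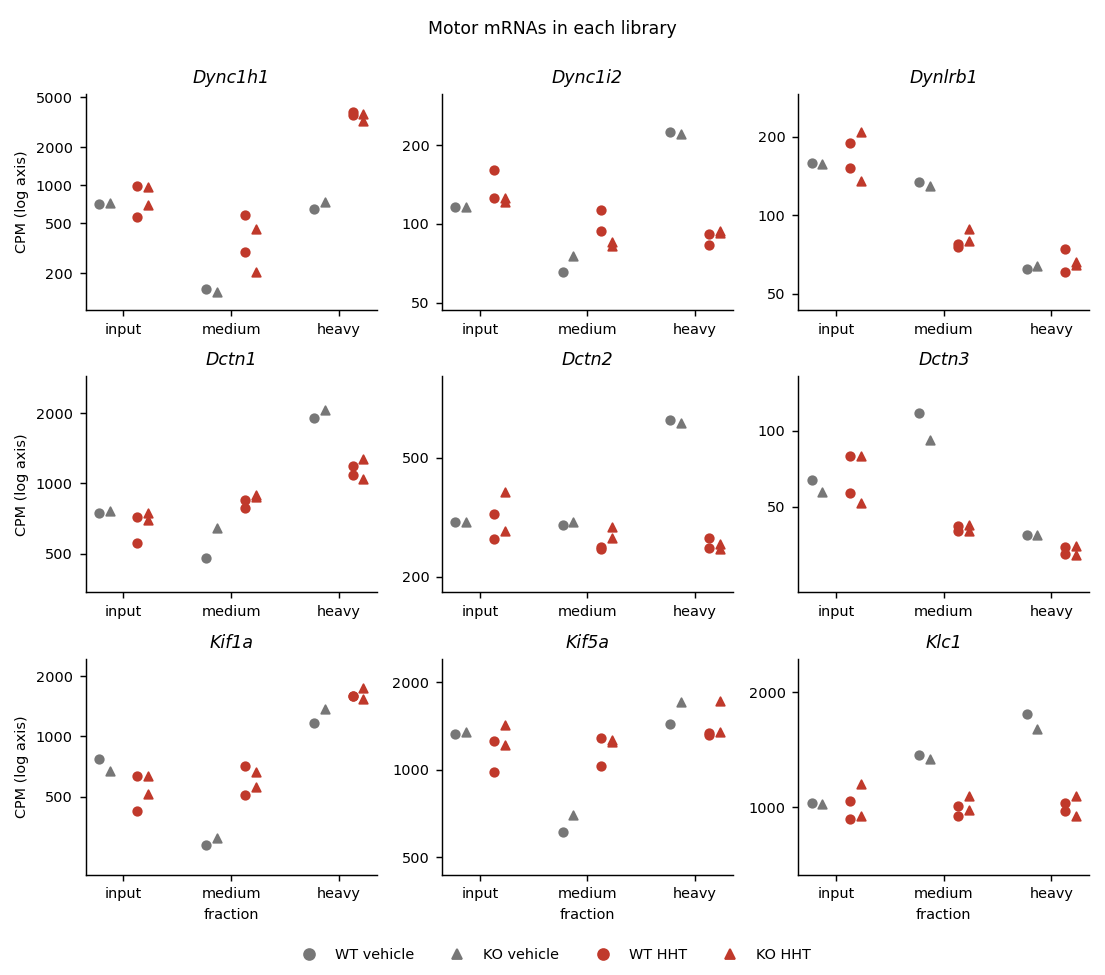
CPM in each of the 18 libraries (log axis) for 9 motor mRNAs, by fraction, in vehicle (grey) and HHT (red), WT (circles) and KO (triangles), each point being 1 library. Dync1h1 rises in heavy polysomes from 651 and 734 to between 3271 and 3800 CPM, while Dctn2 falls there and Dctn3 falls in medium.

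Against its own input, Dync1h1 was scarce in medium polysomes of vehicle slices (-2.29 ± 0.38, adjusted p = 0.00431) and about equal in heavy (-0.05 ± 0.36, adjusted p = 0.925). Under HHT the heavy to input ratio was 2.16 ± 0.26 (adjusted p = 1.86e-05) and the medium to input ratio -1.08 ± 0.26 (adjusted p = 0.00691; -0.96 and adjusted p = 0.0527 without KO replicate 2). The change of the heavy ratio from vehicle to HHT was 2.21 ± 0.44 (adjusted p = 0.00273). That of the medium ratio was 1.21 ± 0.44 and did not pass (adjusted p = 0.079), and with the fractions of a lysate fitted as a block it was 1.18 ± 0.30 (adjusted p = 0.0131).

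The 4 intermediate and light intermediate chain mRNAs of dynein-1 went the other way in heavy polysomes. Dync1i2, an intermediate chain that binds dynactin, stood at 224 and 221 CPM in WT and KO vehicle and at 82.8, 91.6, 93.6 and 92.6 in the 4 HHT libraries of that fraction. HHT libraries were all below vehicle, 2.47-fold lower on average (-1.31 ± 0.12, adjusted p = 4.72e-06). The neuronal intermediate chain Dync1i1 fell from 523 and 518 CPM to 232, 251, 247 and 285 (-1.04 ± 0.11, adjusted p = 8.01e-06). The light intermediate chains, which tie adaptors to the motor, fell too, Dync1li1 by 1.12 ± 0.11 (adjusted p = 8.01e-06) and Dync1li2 by 0.63 ± 0.10 (adjusted p = 0.000157). In medium polysomes these 4 mRNAs did not move as one: Dync1i1 rose by 0.49 ± 0.11 (adjusted p = 0.00311) and Dync1i2 by 0.40 ± 0.13 (adjusted p = 0.0208), Dync1li2 fell by 0.46 ± 0.10 (adjusted p = 0.00233), and Dync1li1 stood at 0.12 ± 0.12 (adjusted p = 0.457). The medium call of Dync1i2 was lost without KO replicate 1 (0.37, adjusted p = 0.0932), without KO replicate 2 (0.42, adjusted p = 0.057) and with total counts as the scale. In input none of the 4 passed, at -0.06, 0.20, -0.03 and -0.06 for Dync1i1, Dync1i2, Dync1li1 and Dync1li2. In heavy polysomes the heavy chain mRNA thus gained and these 4 lost share in the same libraries.

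Light chain mRNAs, whose products form small dimers at the base of dynein, are the shortest of the set at 267 to 348 nt of coding sequence. Dynll1 and Dynll2 encode a near-identical pair that also serves as a hub for many partners outside dynein. Their coding sequences from GENCODE M21 on GRCm38 are shown because reads of this pair can be told apart, so that each has a count of its own: Dynll1 lies at chr5:115297110-115300999 and Dynll2 at chr11:87979525-87987533, both on the minus strand. The 2 sequences have 267 bases each without the stop codon, share 217 bases and differ at 50, which are in capitals, an identity of 81.3%, and no stretch of 31 bases occurs in both.
Dynll1: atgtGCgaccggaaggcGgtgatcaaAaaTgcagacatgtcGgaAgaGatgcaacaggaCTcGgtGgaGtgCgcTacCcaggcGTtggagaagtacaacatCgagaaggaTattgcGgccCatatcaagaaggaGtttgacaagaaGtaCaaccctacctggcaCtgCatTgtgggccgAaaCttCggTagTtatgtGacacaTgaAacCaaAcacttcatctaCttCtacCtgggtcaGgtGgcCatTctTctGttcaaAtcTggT
Dynll2: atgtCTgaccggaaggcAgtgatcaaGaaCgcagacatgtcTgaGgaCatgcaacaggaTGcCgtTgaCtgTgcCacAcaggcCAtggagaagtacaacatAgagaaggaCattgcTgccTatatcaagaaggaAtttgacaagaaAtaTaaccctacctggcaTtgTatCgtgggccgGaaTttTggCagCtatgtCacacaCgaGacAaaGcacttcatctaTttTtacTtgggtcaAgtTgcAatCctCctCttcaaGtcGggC

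Dynll2 rose in both polysome fractions. In medium it stood at 413 and 397 CPM in WT and KO vehicle and at 515, 577, 608 and 628 under HHT, with no overlap (0.52 ± 0.14, adjusted p = 0.00727). In heavy the values were 190 and 222 CPM against 315, 238, 339 and 262, again without overlap (0.49 ± 0.14, adjusted p = 0.00943), but the call was lost without KO replicate 1 (0.38, adjusted p = 0.0654). With the replicate 2 lysates alone the heavy change of Dynll2 was 0.28. Dynll1 lay above vehicle in all 4 HHT libraries of heavy but passed in neither fraction, with -0.21 ± 0.15 for medium (adjusted p = 0.274) and, for heavy, 0.27 ± 0.15 (adjusted p = 0.156). The difference between the 2 genes was not tested. Dynlrb1 fell in medium from 134 and 130 CPM to 77.9, 75.7, 88.6 and 79.8 (-0.71 ± 0.16, adjusted p = 0.00253) and stood at 0.08 ± 0.17 in heavy (adjusted p = 0.738). Dynlt3, a Tctex-type light chain, stood at -0.39 ± 0.17 and 0.38 ± 0.18 in medium and heavy and passed in neither. Dynlt1a and Dynlt1f have identical coding sequences and Dynlt1b differs from them at 1 base, so their counts are uncertain as single genes; of these Dynlt1f was lower in medium (-0.90 ± 0.29, adjusted p = 0.0212; adjusted p = 0.0514 without KO replicate 1). Dynlrb2 was near the floor, at 0.232 to 1.47 CPM.

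Dynein-2 moves cargo back along the cilium and has its own heavy chain. Dync2h1, with 12918 nt the second longest coding sequence, rose in heavy polysomes from 16.8 and 18.9 CPM in vehicle to 46.1, 49.6, 54.3 and 50.2 under HHT. The rise was 2.81-fold (1.49 ± 0.18, adjusted p = 2.16e-05), and medium stood at 0.34 ± 0.19 (adjusted p = 0.174). Its light intermediate chain Dync2li1 fell in both fractions, in heavy from 21.2 and 19.9 CPM to 8.24, 12.3, 8.10 and 9.46 (-1.10 ± 0.19, adjusted p = 0.000276) and in medium by 0.79 ± 0.19 (adjusted p = 0.00402). In heavy the Dync2h1 and Dync2li1 mRNAs thus moved in opposite directions.

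Dynactin, which couples dynein to cargo, had longer mRNAs that fell in heavy and shorter ones that fell in medium. Dctn1, its largest subunit, which grips microtubules and dynein, rose in medium from 478 and 643 CPM to 847, 787, 873 and 893 (0.62 ± 0.13, adjusted p = 0.00184) and fell in heavy from 1911 and 2057 to 1085, 1190, 1041 and 1272 (-0.79 ± 0.12, adjusted p = 0.000128). Groups did not overlap in either fraction. Dctn2, or dynamitin, of the shoulder, stood in heavy at 668 and 655 CPM in vehicle and at 270, 248, 248 and 257 under HHT, 2.59-fold lower (-1.37 ± 0.13, adjusted p = 4.72e-06), with -0.19 ± 0.13 in medium (adjusted p = 0.268). Dctn4, of the pointed end, fell in heavy by 1.03 ± 0.11 (adjusted p = 1.2e-05) and stood at -0.13 ± 0.12 in medium (adjusted p = 0.398).

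The 3 short dynactin mRNAs, of 546 to 570 nt, fell in medium instead. Dctn3, another shoulder subunit (chr4:41714798-41723170, minus strand), stood there at 118 and 91.6 CPM in vehicle and at 42.0, 40.0, 40.2 and 42.4 under HHT, the largest fall in medium among the motor mRNAs that passed (-1.33 ± 0.16, adjusted p = 0.000105). The pointed-end subunits Dctn5 and Dctn6 fell by 0.85 ± 0.14 (adjusted p = 0.000357) and 0.89 ± 0.14 (adjusted p = 0.000303). In heavy the 3 stood at -0.20 ± 0.18, 0.02 ± 0.15 and -0.25 ± 0.15 for Dctn3, Dctn5 and Dctn6, and none passed. In vehicle these short mRNAs were richer in medium than in input, by 0.78 ± 0.20, 0.65 ± 0.16 and 0.56 ± 0.16 (adjusted p = 0.0169, 0.0177 and 0.0318), the last lost without KO replicate 1, with total counts and with limma (adjusted p of 0.052 to 0.0552). In heavy of vehicle slices they were poorer than in input, by -0.65, -0.65 and -0.51, the last lost with RLE factors and DESeq2 (adjusted p = 0.0557 and 0.0795). A further 7 genes of dynactin with other names (the actin-related filament and its capping proteins) were listed separately: 6 fell and 1 rose in medium, and 4 fell and 0 rose in heavy. Among them the capping subunit Capzb fell by 1.22 ± 0.15 in medium (adjusted p = 0.000107) and the filament subunit Actr1a by 0.84 ± 0.12 in heavy (adjusted p = 5.83e-05).

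**Figure D3:**
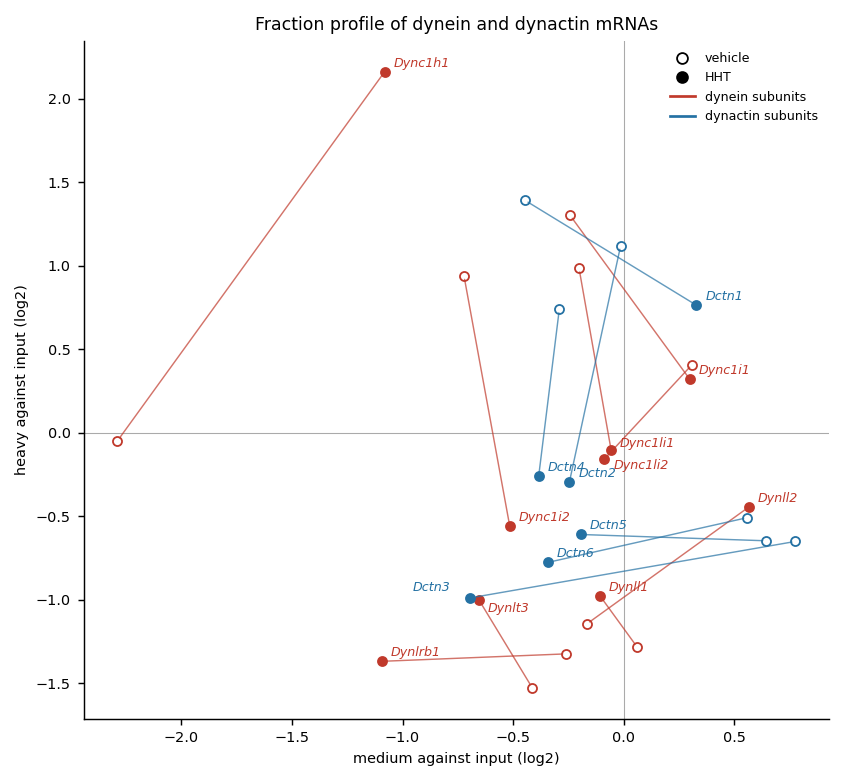
Medium to input (horizontal) against heavy to input ratio (vertical), both log2 from edgeR, for 15 dynein and dynactin mRNAs, with an open circle for vehicle, a filled circle for HHT and a line between them. Dync1h1 moves from -2.29 and -0.05 to -1.08 and 2.16, Dctn2 drops from 1.12 to -0.30 on the vertical axis, and the short Dctn3, Dctn5 and Dctn6 move left.

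Kinesin-1 consists of Kif5 heavy chains and Klc light chains and carries mitochondria, vesicles and RNA granules outwards. No kinesin-1 mRNA rose in heavy polysomes and 5 of 7 fell. Klc1 stood there at 1749 and 1604 CPM in vehicle and at 979, 1024, 948 and 1071 under HHT (-0.74 ± 0.11, adjusted p = 0.000102), and Klc2 fell by 0.63 ± 0.11 (adjusted p = 0.000422). Klc4 fell from 24.5 and 28.1 CPM to 12.3, 12.4, 12.5 and 12.9 (-1.07 ± 0.17, adjusted p = 0.000119). Kif5c fell by 0.64 ± 0.10 (adjusted p = 0.000165) and Kif5b, the heavy chain found in all tissues, by 0.54 ± 0.18 (adjusted p = 0.0188; lost without WT replicate 1 and with limma, at -0.48 and -0.31 and adjusted p = 0.0838 and 0.227). Kif5a did not pass in heavy (-0.14 ± 0.14, adjusted p = 0.454).

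In medium polysomes heavy chain and light chain mRNAs of kinesin-1 parted. Kif5a rose there from 611 and 702 CPM in vehicle to 1290, 1028, 1247 and 1272 under HHT, with every HHT library above vehicle (0.88 ± 0.15, adjusted p = 0.00042). Kif5b stood at 44.1 and 42.5 CPM in vehicle and 67.7, 64.9, 57.0 and 61.5 under HHT (0.53 ± 0.19, adjusted p = 0.031), a call lost without WT replicate 1 (0.52, adjusted p = 0.0812) or WT replicate 2 (0.55, adjusted p = 0.063) and with total counts (0.42, adjusted p = 0.0798). Klc1 fell from 1370 and 1333 to 947, 1008, 982 and 1071 CPM (-0.43 ± 0.11, adjusted p = 0.0066) and Klc2 by 0.39 ± 0.12 (adjusted p = 0.0127). Kif5c stood at -0.10 ± 0.11 (adjusted p = 0.461).

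Of the 26 other kinesin genes 6 rose and 1 fell in medium, and 2 rose and 7 fell in heavy. Kif1a, the kinesin-3 that carries synaptic vesicle precursors, had the largest rise in medium after Dync1h1, from 286 and 309 CPM to 713, 512, 667 and 556 (1.04 ± 0.18, adjusted p = 0.000557). In heavy it stood at 1171 and 1362 CPM in vehicle and 1588, 1592, 1541 and 1745 under HHT, which do not overlap, but the change of 0.36 ± 0.18 did not pass (adjusted p = 0.108). Kif1b, a relative that carries mitochondria and vesicle precursors, rose by 0.78 ± 0.15 in medium (adjusted p = 0.00103) and stood at -0.02 ± 0.15 in heavy. Kif13b, another kinesin-3, rose in medium by 0.64 ± 0.22 (adjusted p = 0.0259), which was lost without WT replicate 1 (0.42, adjusted p = 0.0947), KO replicate 1 (0.58, adjusted p = 0.0998) or KO replicate 2 (0.69, adjusted p = 0.0505) and with total counts (0.53, adjusted p = 0.0528). The 2 rises in heavy were Kif1c (0.49 ± 0.12, adjusted p = 0.00323) and Kif13a (0.40 ± 0.13, adjusted p = 0.0152; lost without KO replicate 2, with RLE factors and with DESeq2, at 0.38, 0.29 and 0.29 and adjusted p = 0.0614, 0.0701 and 0.163), both of the kinesin-3 family.

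Kinesin-2 drives transport in cilia and in axons. Its subunit Kif3a rose in medium from 139 and 174 CPM to 279, 301, 274 and 270 (0.85 ± 0.14, adjusted p = 0.00032) and fell in heavy from 542 and 544 to 276, 362, 318 and 297 (-0.79 ± 0.13, adjusted p = 0.000143). Its partners Kif3b and Kif3c passed in neither fraction, at -0.03 ± 0.11 and -0.22 ± 0.10 in medium and -0.25 ± 0.10 and -0.16 ± 0.10 in heavy. Kif17, a kinesin-2 that carries NMDA receptor vesicles, fell by 0.46 ± 0.12 in heavy (adjusted p = 0.00558) and by 0.33 ± 0.12 in medium (adjusted p = 0.0373), the latter lost without any one of the 4 HHT lysates (adjusted p of 0.0746 to 0.0931), and both lost with limma (adjusted p = 0.143 in heavy and 0.179 in medium), the medium one also with DESeq2 (adjusted p = 0.0562). Kif21a, which restrains microtubule growth, rose by 0.66 ± 0.15 in medium (adjusted p = 0.00253), while its paralog Kif21b stood at 0.00 ± 0.13. Kif2a, which takes microtubules apart, fell by 0.56 ± 0.13 in heavy (adjusted p = 0.00201), and its medium value of 0.33 ± 0.13 passed narrowly (adjusted p = 0.0493) and not without any one of the 4 HHT lysates or with total counts, RLE factors or DESeq2 (adjusted p of 0.0616 to 0.197). The heavy call of Kif2a was lost with limma (-0.32, adjusted p = 0.0704).

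Among the 20 myosins 11 rose and 0 fell in medium, while 1 rose and 6 fell in heavy. Over all 13973 genes 3551 rose and 3011 fell in medium, and 3781 rose and 3451 fell in heavy. Longer coding sequences went with higher medium changes over all genes (Spearman's rank correlation 0.471). Whether the myosin counts go beyond their coding length was not tested. Myo6, the myosin that walks towards the minus end of actin, stood in medium at 24.6 and 25.1 CPM in vehicle and at 55.7, 52.1, 48.3 and 46.4 under HHT, the largest rise of the class (1.02 ± 0.16, adjusted p = 0.000256). In heavy it stood at -0.14 ± 0.14 (adjusted p = 0.464). Myo5a, which brings endoplasmic reticulum and vesicles into spines, rose in medium from 240 and 242 CPM to 485, 452, 414 and 380 (0.84 ± 0.17, adjusted p = 0.00137), and its heavy value of 0.34 ± 0.17 did not pass (adjusted p = 0.104). Myo10, of filopodia, rose by 0.75 ± 0.15, Myo16 by 0.72 ± 0.18 and Myo9a by 0.64 ± 0.16 in medium (adjusted p = 0.00156, 0.00508 and 0.00466). Myo9b, a relative of Myo9a, stood at 0.26 ± 0.15 and Myo5b at 0.07 ± 0.12, and neither passed. Among the myosins only Myo7a passed upwards in both, with 0.93 ± 0.19 (adjusted p = 0.00169) for medium, and for heavy 0.55 ± 0.17 (adjusted p = 0.0168), the latter lost without KO replicate 2 (0.49, adjusted p = 0.0658), with RLE factors (0.43, adjusted p = 0.053) and with DESeq2 (0.43, adjusted p = 0.0586).

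Class I myosins tether membranes to actin. Of these, Myo1d rose by 0.83 ± 0.20 (adjusted p = 0.00414) and Myo1e by 0.64 ± 0.15 in medium (adjusted p = 0.0039). The heavy fall of Myo1e, 0.40 ± 0.14 (adjusted p = 0.0333), was lost without WT replicate 1 (-0.36, adjusted p = 0.104), WT replicate 2 (-0.44, adjusted p = 0.0557) or KO replicate 1 (-0.35, adjusted p = 0.0851), with total counts (-0.35, adjusted p = 0.0642) and with limma (-0.16, adjusted p = 0.43), and Myo1d stood at -0.31 ± 0.18 there. Myo18a, a myosin of the Golgi, rose by 0.36 ± 0.13 in medium (adjusted p = 0.0385; lost without KO replicate 1, KO replicate 2 or WT replicate 1 and with total counts, RLE factors or DESeq2, with adjusted p of 0.0624 to 0.116) and fell by 0.39 ± 0.13 in heavy (adjusted p = 0.0195; adjusted p = 0.0664 without KO replicate 1 and 0.368 with limma). Conventional myosin II chains and their light chains and regulators, which the symbol rule leaves out, formed a list of 17 of which 4 rose and 9 fell in medium and 0 rose and 3 fell in heavy. There the long heavy chain Myh9 rose by 1.02 ± 0.14 in medium (adjusted p = 0.000157), while the short light chains Myl6 and Myl12b fell by 1.69 ± 0.18 and 1.49 ± 0.16 (adjusted p = 9.48e-05 for both).

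Coding length, which the symbol rule did not use, gives another view of the same values. Motor coding sequences had a median of 3069 nt, against 1422 over the 13068 genes with a length in GENCODE M21. Across the 74 genes, which share libraries and are not independent, Spearman's rank correlation of coding length with the HHT change was 0.609 in medium and 0.312 in heavy, beside 0.471 and -0.034 over all genes with a length. In medium the 11 motor mRNAs under 1000 nt had a median change of -0.71 (all genes of that length -0.36), the 16 of 3000 to under 4000 nt 0.46 (0.38) and the 18 of 5000 nt or more 0.55 (0.55). The 12 of 1000 to under 2000 nt had a median of -0.16 (0.00), the 12 of 2000 to under 3000 nt 0.05 (0.24), and the 5 of 4000 to under 5000 nt 0.06 (0.50). In 4 of the 6 length classes the motor median was thus below that of all genes, and in the others it was equal or higher.

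In heavy polysomes the length class of 1000 to under 2000 nt held 12 motor mRNAs. Of these, 11 fell, with a median of -1.05, while 33.7% of all 5108 genes of that length fell and their median was -0.06. These 11 are Dctn2, Dctn4, Dync1i1, Dync1i2, Dync1li1, Dync1li2, Dync2li1, Klc1, Klc2, Klc4 and Kif22, of which Kif22 was low at 1.03 to 3.37 CPM and is named for this count. Kif22 is a mitotic kinesin. Motor mRNAs of 2000 to under 3000 nt had a median of -0.55 (all genes -0.16), those of 3000 to under 4000 nt -0.34 (-0.08), and those of 5000 nt or more 0.09 (0.37). In each of these classes too the motor median was below that of all genes, so a lower median was not confined to 1000 to under 2000 nt. Heavy medians under 1000 nt and of 4000 to under 5000 nt are not given here. Since the symbols were chosen with these results in view, no p is given for the length classes.

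**Figure D4:**
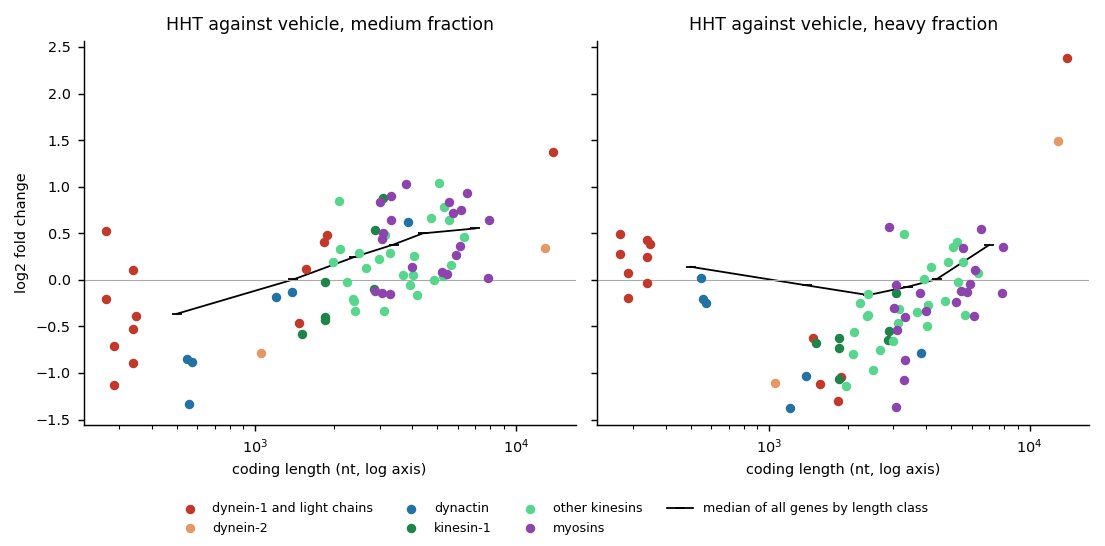
HHT change (log2) of each of the 74 motor mRNAs against coding length (nt, log axis) in medium (left) and heavy polysomes (right), coloured by class, with the black line joining the medians of all genes in 6 length classes. In medium most points follow the line upwards, and in heavy the motor mRNAs of 1000 to under 2000 nt lie below it, with a median of -1.05 against -0.06.

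Ratios of a polysome fraction to the input of the same treatment compare the share of an mRNA in that fraction with its share in input. In vehicle 38 of 74 were richer and 11 poorer in heavy than in input, 66.2% in all, against 46.5% of all genes (24.8% richer, 21.7% poorer). Medium was richer for 5 and poorer for 18, against 19.7% of all genes (10.2% and 9.5%). The fraction of highest mean CPM was heavy for 57 of the 74, input for 10 and medium for 7. All but 1 of the 7 kinesin-1 genes and 18 of 20 myosins were highest in heavy. This was not counted over all genes, so whether it is particular to motor genes was not tested. Among the largest ratios in heavy were Myo16 at 1.43 ± 0.20 (adjusted p = 0.000103), Dctn1 at 1.39 ± 0.15 (adjusted p = 4.19e-05) and Dync1i1 at 1.30 ± 0.13 (adjusted p = 4.18e-05). Short light chains were at the other end, with Dynlt3 at -1.53 ± 0.20 (adjusted p = 8.5e-05), Dynlrb1 at -1.33 ± 0.19 (adjusted p = 0.000141) and Dynll1 at -1.28 ± 0.18 (adjusted p = 9.54e-05). On total counts, which move the median of all genes to -0.41 in this ratio, 31 passed, 19 richer and 12 poorer.

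Under HHT 30 motor mRNAs were richer and 15 poorer in heavy than in input, against 58% of all genes called (27.6% richer, 30.4% poorer), and heavy was the highest fraction for 42 of the 74, input for 23 and medium for 9. Of the dynactin genes 5 of 6, and 10 of the 13 genes of dynein-1 and light chains were then highest in input, compared with 0 and 7 in vehicle. None of these counts of the highest fraction was made over all genes. The highest ratios belonged to long mRNAs, with Dync1h1 at 2.16, Dync2h1 at 1.74 ± 0.14 (adjusted p = 2.02e-06), Myo7a at 1.73 ± 0.14 (adjusted p = 2.11e-06), Kif1a at 1.55 ± 0.14 (adjusted p = 3.06e-06) and Myo16 at 1.53 ± 0.14 (adjusted p = 2.83e-06). Across the 74, Spearman's rank correlation of coding length with this ratio was 0.818 under HHT and 0.291 in vehicle, beside 0.639 and 0.598 over all genes. Medium to input under HHT was richer for 5 and poorer for 11 (30.4% of all genes called, 13.4% and 17%), a count that fell to between 2 and 13 when 1 lysate was left out, with 2 without KO replicate 2 and 6 without WT replicate 2.

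The change of these ratios from vehicle to HHT compares shares in a fraction with shares in input. It does not measure how much of an mRNA moved between fractions. For medium 19 ratios rose and 4 fell, against 17.3% of all genes (7.09% and 10.2%), with Kif1a (1.42 ± 0.25, adjusted p = 0.00435) and Kif1b (1.17 ± 0.21, adjusted p = 0.00447) at the top and Dctn3 at the bottom (-1.47 ± 0.24, adjusted p = 0.0038). Without KO replicate 2 the number was 13. For heavy 7 rose and 15 fell, against 28.9% of all genes (12.6% and 16.3%). Among those of at least 5 CPM Dync1i2 had the largest fall (-1.50 ± 0.18, adjusted p = 0.000175), followed by Dctn2 (-1.42 ± 0.19, adjusted p = 0.000263), Dync1li1 (-1.09 ± 0.17), Dctn4 (-0.998 ± 0.17) and Dync1i1 (-0.98 ± 0.15), and Dync1h1 and Dync2h1 had the largest rises (2.21 and 1.58). On total counts 11 heavy ratios rose and 12 fell.

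Adaptors and regulators of motors, a list of 48 names with 43 measured, showed no one direction: 10 rose and 15 fell in medium, 6 rose and 11 fell in heavy, and 0 passed in input. Kifap3, which binds kinesin-2, stood, like Kif3a, higher in one fraction and lower in the other, at 0.91 ± 0.12 (adjusted p = 0.000152) for medium and, for heavy, -0.69 ± 0.12 (adjusted p = 0.000233). Hap1 and Fez1, which join cargo to kinesin and dynein, fell in heavy by 1.02 ± 0.11 and 1.03 ± 0.13 (adjusted p = 1.26e-05 and 2.86e-05). Mapk8ip3, a scaffold of axonal transport, rose by 0.92 ± 0.15 in medium (adjusted p = 0.000329).

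The last comparison asks whether loss of FMRP, an RNA-binding protein that represses translation, alters motor mRNAs under HHT. With 2 lysates per genotype 0 of 74 passed in input, medium or heavy, and DESeq2 also called 0 of the 74. By edgeR 0% of all genes were called, so Fmr1 itself was not called, although its WT and KO libraries do not overlap. The medium result for motor genes changed with the replicate number as a block, as given with the other settings. Unadjusted p was under 0.05 for 679, 387 and 412 of all 13973 genes in input, medium and heavy, and for 3, 2 and 1 motor genes. In input these were led by Dynlt3, at 83.2 and 132 CPM in WT and 76.3 and 73.8 in KO (-0.51 ± 0.19, adjusted p = 0.89), and Dynlt1b (0.52 ± 0.23, adjusted p = 0.89). In medium Kif26a, a kinesin without motor activity, stood at 13.5 and 12.3 CPM in WT and 8.38 and 7.26 in KO (-0.72 ± 0.20, unadjusted p = 0.00289, adjusted p = 0.999), and Myo9a at -0.40 ± 0.17 (adjusted p = 0.999). Both KO libraries of Kif26a lay below both WT libraries in medium and also in heavy, where the values were 13.9 and 14.9 against 9.03 and 12.0 CPM (-0.45 ± 0.20, adjusted p = 1).

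The distance from the estimate to either end of the 95% interval of a motor gene's KO to WT change had a median of 0.36 on the log2 scale in each of the 3 fractions, and ran from 0.25 to 0.77. Over the 57 motor genes of at least 5 CPM, estimates ran from -0.51 to 0.52 in input, from -0.72 to 0.31 in medium and from -0.45 to 0.22 in heavy. Dync1h1 stood at 0.10 ± 0.36, -0.42 ± 0.36 and -0.08 ± 0.36 in input, medium and heavy. For the KO effect on medium to input and heavy to input ratios 0 of 74 motor genes passed, also with DESeq2. Over all genes 0% and 0.00716% passed with edgeR. Its unadjusted p was under 0.05 for 1 and 0 motor genes, beside 259 and 448 of all 13973 genes. The interaction of genotype with HHT passed for 0 of 74 in each fraction, where 0% of all genes did, with 0, 1 and 0 at unadjusted p under 0.05, and rests on 1 vehicle library per genotype.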

How the data were processed

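Estimated counts per gene were deposited by the authors for 18 libraries, and a second deposited table holds a score, a rescaled TPM per gene (column sums of 10 libraries exceed what TPM allows). Per the submitters' processing notes mm10, RSEM 1.2.11, Bowtie2 2.1.0, DESeq2 1.16.1 and Trimmomatic 0.32 were used, with no roles stated. Which libraries belong to which batch is not given in the sources used, so whether a batch coincides with treatment or replicate number is not known. The estimates were rounded, and edgeR 4.0.16 was run (quasi-likelihood F-test, TMM factors, filterByExpr, R 4.3.3) over all 13973 genes with 12 group means and 6 residual degrees of freedom. Two-sided p-values were adjusted by Benjamini and Hochberg within each of 17 comparisons at 0.05. HHT against vehicle and ratios to input were averaged over genotypes. CPM are scaled by TMM, and the rescaled TPM served only to rank genes per length. Nothing says whether mice were shared between lysates, so p-values measure the spread between these lysates. Alternatives were total counts, RLE factors, DESeq2 1.42.0, limma 3.58.1 on log2 of rescaled TPM plus 1, no filter, replicate and lysate blocks, each genotype alone, and each HHT lysate left out. The 3 fractions of a lysate share it by protocol; deviations from group means of medium and of heavy correlated with those of input at 0.349 and 0.0509 in WT and at 0.211 and 0.056 in KO. Genes named were a fixed cast of subunits, up to 5 of the largest rises and falls past the threshold with at least 5 CPM, and up to 4 of each related list. The members and lists were chosen with earlier results of these data known. Coding lengths and sequences come from GENCODE M21 on GRCm38. The values of 1 motor gene are not reported here by name, and it remains in the counts.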

Additional observations from a re-analysis of the deposited data

How the results depend on the processing

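Of the motor genes called, 26 of 34 in medium and 20 of 32 in heavy passed in every setting run, as did 30 of 45 for heavy to input under HHT and 28 of 49 in vehicle, 12 of 23 and 8 of 22 for the medium and heavy shift, 16 of 23 and 2 of 16 for medium to input in vehicle and under HHT, and 0 of 1 in input; 0 calls reversed. The single input call became 4 with total counts, 0 to 3 with 1 lysate left out, 0 in WT alone and 0 in KO alone. Counts with the replicate 1 or replicate 2 HHT lysates alone are not given, since these leave 1 HHT lysate per genotype. In WT alone the count was 21 in heavy, 29 for heavy to input in vehicle, 9 for medium to input in vehicle, 4 for medium to input under HHT, 8 for the medium shift and 9 for the heavy shift. In KO alone it was 11 in medium, 0 for medium to input in vehicle, 7 for medium to input under HHT, 0 for the medium shift and 9 for the heavy shift. Total counts gave 31 for heavy to input in vehicle. Leaving out 1 HHT lysate gave 2 to 13 for medium to input under HHT and 13 to 23 for the medium shift, and the replicate 1 lysates alone gave 6 for the former. Higher calls were 18 of 31 in medium with total counts, 14 of 33 in heavy with limma, 11 of 23 and 15 of 23 for the heavy shift with total counts and limma, 21 of 43 for heavy to input under HHT with total counts, and 3 of 16 and 7 of 15 for medium to input under HHT with total counts and RLE. Limma moved the median of all genes by 0.24 in heavy. The cause of these changes was not tested. With the lysate block, counts were 28 and 50 for medium and heavy to input in vehicle, 18 and 46 under HHT and 27 for each shift. The ratios and shifts together gained 18 calls.

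With the replicate number as a block, KO against WT in medium gave 5 motor genes in place of 0: Dync1h1, Kif21a, Myo9a, Kif26a and Dync1i2, and 0 in input and heavy. Each number holds 1 HHT lysate per genotype, so this fit has little replication from which to estimate a gene's spread. Dync1h1 stood at -0.45 ± 0.075 with the block and at -0.42 ± 0.36 without it. The SE thus changed far more than the estimate. Whether pairing or the estimate of spread accounts for these calls was not tested. No label says that a number pairs a WT with a KO lysate, and the deviations of same-numbered samples correlated at 0.323, 0.165 and 0.00332 across the fractions. With 1 vehicle library per genotype and 2 lysates per HHT group, genotype differences could go undetected, and not only small ones. Without the block Fmr1 itself was not called between KO and WT in any fraction.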

Other observations

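Axonemal dyneins, which beat cilia and lie outside the symbol rule, were measured for 14 of 20 listed genes. In medium 0 rose and 1 fell under HHT, the light chain Dnal1 (-0.84 ± 0.12, edgeR adjusted p = 0.000188), and in heavy 1 rose and 0 fell, the heavy chain Dnah5 (0.47 ± 0.18, adjusted p = 0.0394). Of 10 ependyma and choroid plexus markers 8 were measured, and 2 were higher and 0 lower in HHT input; their part in these values was not tested. Huntingtin, which links vesicles to motors and has a long coding sequence, stood among the adaptors at a heavy to input ratio of 2.01 ± 0.17 under HHT (Htt).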
